A study of Homo sapiens with 9 samples.

Results

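The genes described here are ARNT, its paralogue ARNT2, BMAL1 and BMAL2 (listed in the counts table under their older symbols ARNTL and ARNTL2), the BMAL partners CLOCK and NPAS2, and the p160 coactivators NCOA1, NCOA2 and NCOA3. They were listed by name as a family with its partners, with earlier results of these data known, and all 9 were present among 38021 gene names. The libraries came from 786-O, a clear cell renal carcinoma line without functional VHL, the protein that marks HIF-2α for degradation. The cells carried a lentiviral short hairpin: a control hairpin (shControl, genotype labelled WT), one against ARNT (shARNT, ARNT knockdown) or one against BMAL1 (shBMAL1, BMAL1 knockdown), with 3 libraries labelled as biological replicates in each group. All 3 groups had been transduced, selected with puromycin at 2.5 µg/mL for 1 week and then kept at 1.25 µg/mL in medium with 10% fetal bovine serum. Each targeted gene was represented by 1 hairpin in 1 cell line, so an effect of a hairpin on other transcripts cannot be told apart from an effect of losing its target. The labels do not say whether the replicates came from separate transductions, so the tests measure the spread between these libraries.

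ARNT and the BMAL proteins belong to the bHLH-PAS family, whose members bind DNA as pairs. ARNT, also called HIF-1β, pairs with the oxygen-regulated HIF-α subunits and with the aryl hydrocarbon receptor AHR, and the HIF pairs bind the hypoxia response element. BMAL1 pairs with CLOCK or with its paralogue NPAS2 and binds the E-box, which drives the PER, CRY and REV-ERB genes of the circadian clock. The p160 coactivators are best known for binding ligand-bound nuclear receptors and for bringing in histone acetyltransferases and arginine methyltransferases. VHL-deficient kidney cancer cells are a setting in which HIF-2α is continuously present and available to a partner.

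The libraries held 33793045 to 35444735 reads each, with 20068 to 20778 genes detected, so the members were counted with 290 to 2943 reads per library. Mitochondrial transcripts took 5.46% to 7.14% of reads in shControl, 7.59% to 8.74% in shARNT and 8.71% to 9.66% in shBMAL1, and the part of this difference in the results below was not tested. The labelled cell type was checked against 7 markers of renal carcinoma lines (PAX8, KRT8, KRT18, VIM, MME, CA9 and CDH2), and all were detected in every library. Of these 7, 3 were lower and 1 was higher under each hairpin, beside 35.4% and 36.8% of all genes called in either direction in shARNT and shBMAL1. PAX8, a renal lineage factor with a mean of 10004 normalised counts in shControl, was lower in shBMAL1 (log2 fold change -0.49, DESeq2 adjusted p = 1.71e-11), as was KRT18 (-0.40, adjusted p = 8.54e-06). MME was lower in shARNT (-1.16, adjusted p = 4.21e-38), and CA9, a known HIF target, was lower in shARNT (-2.85, adjusted p = 6.93e-19) and higher in shBMAL1 (1.05, adjusted p = 2.15e-08). VIM was lower under both (-0.18 and -0.21), and KRT8 was higher in shARNT (0.31). The part of these shifts in the results below was not tested. Of 6 markers of other cell types, PTPRC, VWF and DCN stayed at or under 3.02 normalised counts in every library, PECAM1 and RBFOX3 stayed under 17, and LUM lay between 66 and 199.6. LUM was higher in shBMAL1 than in shControl by 1.05 on the log2 scale (DESeq2 adjusted p = 1.67e-05). In bulk RNA, fewer cells carrying a transcript and less of it per cell cannot be told apart.

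In GRCh37 coordinates, taken from GENCODE, ARNT (ENSG00000143437) lies on the minus strand of chromosome 1 from 150782189 to 150849184. ARNT2 (ENSG00000172379) lies on the plus strand of chromosome 15 from 80696692 to 80890274. BMAL1 (ENSG00000133794) lies on the plus strand of chromosome 11 from 13298199 to 13408813, and BMAL2 (ENSG00000029153) on the plus strand of chromosome 12 from 27485769 to 27578222. CLOCK (ENSG00000134852) lies on the minus strand of chromosome 4 from 56294070 to 56413076, and NPAS2 (ENSG00000170485) on the plus strand of chromosome 2 from 101436601 to 101613291. On the same chromosome as NPAS2, NCOA1 (ENSG00000084676) runs from 24714123 to 24993571 on the plus strand. NCOA3 (ENSG00000124151) lies on the plus strand of chromosome 20 from 46130631 to 46285621, and NCOA2 is ENSG00000140396. Each is protein coding and was counted over the whole gene, so isoforms were not separated. Whether the counting used strand is not given in the sources used here, and exons on the opposite strand overlap some members. TMEM165 (4910 to 7157 reads per library) overlaps CLOCK by 76 bases, SULF2 (21 to 77 reads) overlaps NCOA3 by 247 bases, and ARNTL2-AS1 (15 to 46 reads) overlaps BMAL2 by 73 bases. Exons of antisense lncRNAs whose reads were not analysed here overlap NPAS2 by 748 and 400 bases, BMAL1 by 421 bases, and ARNT2 by 148, 139 and 75 bases, so reads from them cannot be told apart from those of the member if strand was not used.

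The start regions of ARNT, BMAL1 and BMAL2 are shown because these paralogues were all lower under both hairpins, as described below. Each sequence is the 250 bases before the annotated start in RefSeq, GRCh38.p14, read 5′ to 3′ on the gene's own strand, and capitals mark matches to the motifs that were searched. These coordinates are of another build than the gene positions above. The regions are chr1:150876600-150876849 on the minus strand for ARNT, chr11:13277540-13277789 on the plus strand for the first of 2 BMAL1 starts, and chr12:27332586-27332835 on the plus strand for BMAL2.
ARNT: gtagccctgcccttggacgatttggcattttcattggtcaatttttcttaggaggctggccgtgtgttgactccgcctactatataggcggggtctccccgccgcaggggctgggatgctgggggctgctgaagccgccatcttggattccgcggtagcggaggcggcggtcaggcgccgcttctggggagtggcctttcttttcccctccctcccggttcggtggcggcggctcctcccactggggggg
BMAL1: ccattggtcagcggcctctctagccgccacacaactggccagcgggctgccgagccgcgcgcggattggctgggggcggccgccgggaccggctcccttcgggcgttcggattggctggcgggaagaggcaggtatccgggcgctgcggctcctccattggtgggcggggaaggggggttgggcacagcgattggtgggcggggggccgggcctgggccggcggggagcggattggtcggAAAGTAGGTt
BMAL2: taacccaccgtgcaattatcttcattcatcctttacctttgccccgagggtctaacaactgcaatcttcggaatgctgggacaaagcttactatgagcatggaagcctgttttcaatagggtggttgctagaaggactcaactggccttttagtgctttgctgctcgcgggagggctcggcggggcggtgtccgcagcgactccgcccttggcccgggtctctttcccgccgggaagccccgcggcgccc
The G and C share of these stretches was 64.4% for ARNT, 72.8% for BMAL1 and 58.0% for BMAL2. Within the 300 bases that the table holds around each start, none of the 3 genes had the E-box CACGTG or the hypoxia response element cores ACGTG and GCGTG on either strand. Those motifs occur in 7.26%, 21.4% and 36.5% of all 35116 RefSeq start regions of this length. CACGTG contains ACGTG, so these 2 motifs overlap.

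The BMAL1 start region held letters of the kind on which the REV-ERB repressors and ROR activators are known to act. The half-site AGGTCA was found in the BMAL1 region once, in no region of another member with an entry, and in 13.8% of all regions. After the sequence had been seen, the 9 letters AAAGTAGGT were also searched. They occurred 2 times at BMAL1, from bases -10 and 27 relative to the start, and in 0.157% of all regions (55 of 35116). Their presence at BMAL1 was known before the search, so the low share over all regions gives the match no weight. The 30-base windows are shown with these letters in capitals, and the half-site AGGTCA lies in the second of them.
BMAL1, from -10: gattggtcggAAAGTAGGTtagtggtgcga
BMAL1, from 27: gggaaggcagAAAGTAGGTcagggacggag
The second annotated BMAL1 start held none of the motifs searched.

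Hypoxia response element cores were found at CLOCK, NCOA3 and NPAS2, and capitals mark the core or its reverse complement. At least 1 of the 2 cores occurs in 48.45% of all 35116 start regions, so such matches are common and not particular to these genes. CLOCK had 1 match to each core at the second of its 2 starts (chr4:55545883-55546182, minus strand, GRCh38.p14). NCOA3 had 1 match to ACGTG and 2 to GCGTG (chr20:47501637-47501936, plus strand). The windows are named by the position of the leftmost letter of the match.
CLOCK, from -187: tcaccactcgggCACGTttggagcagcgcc
CLOCK, from -108: ggcgcccggcccGCGTGccgcagtccgcag
NCOA3, from -141: gccgcacgagccCACGTcgccacgccctcc
NCOA3, from -133: agcccacgtcgcCACGCcctccgccgcgga
NCOA3, from -48: cggtagtgctggGCGTGgcctcgggactac
NPAS2 had 1 match to GCGTG, which began at the first transcribed base. The 3 NCOA1 start regions held none of the motifs. ARNT2 and NCOA2 had no entry in the table used here. A match describes letters and not a bound site.

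Compared per length, ARNT was the most abundant of the 9 transcripts in control cells and NPAS2 the least. Levels are given as TPM, that is, each gene's share of the reads per base of transcript in its library, computed from the counts and the merged exon length of each gene. In shControl, ARNT reached 38.9, 43.6 and 38.0 TPM in replicates 1 to 3, or 40.1 ± 2.99 (SD, n = 3). NCOA3 followed at a mean of 29.9 TPM, BMAL2 at 23.8, NCOA2 at 20.4, CLOCK at 18.0, NCOA1 at 15.7, BMAL1 at 12.1, ARNT2 at 11.5 and NPAS2 at 5.22. The libraries of neighbours in this order overlapped for NCOA2 and CLOCK, for CLOCK and NCOA1, and for BMAL1 and ARNT2, so these neighbours were not separated by the spread. ARNT stood above 77.4% of the 17063 genes with a level in shControl, and NPAS2 above 41.6%.

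**Figure D1:**
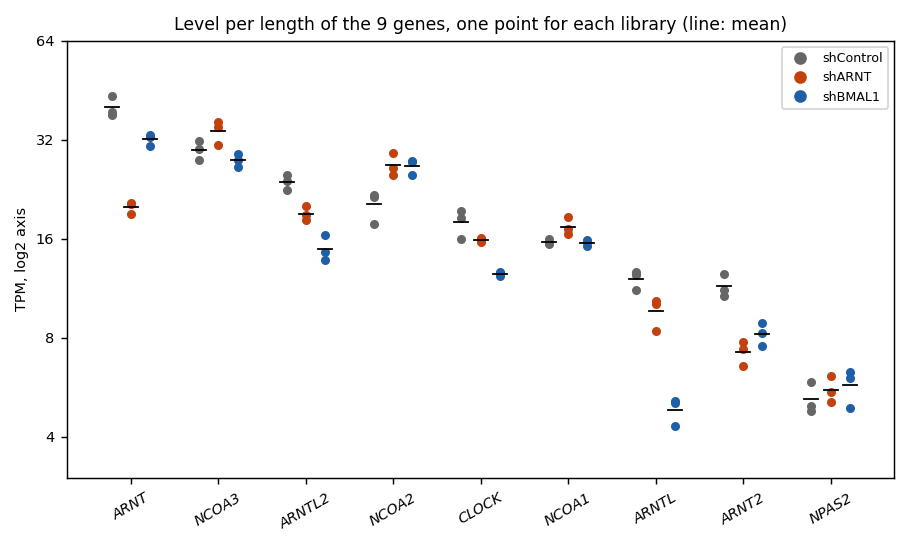
Level of the 9 genes in TPM on a log2 axis, with 1 point for each library and a line at the mean of 3, ordered by the shControl mean. ARNT fell from the first place to 20.03 TPM in shARNT, and BMAL1 lay below NPAS2 by mean in shBMAL1, at 4.84 against 5.75 TPM.

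The order depended on the length used, except for the first and last places. With the coding length alone, BMAL2 (29.4 TPM) and CLOCK (27.4) stood above NCOA3 (19.8). With the longest transcript, BMAL1 (15.98) stood above CLOCK (14.6) and NCOA1 (14.0). The fold changes given below are of counts of 1 gene between groups, and the length of the gene does not enter them.

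Within each paralogue pair, 1 gene made up the larger part in control cells, and for BMAL it was BMAL2 and not the targeted BMAL1. ARNT made up 77.7% ± 1.96 (SD, n = 3) of the summed ARNT and ARNT2 level in shControl, and BMAL1 33.7% ± 2.11 of the summed BMAL1 and BMAL2 level. BMAL1 came closer to BMAL2, at 47.3%, when the longest transcript was used as the length. CLOCK made up 77.5% ± 1.92 of the CLOCK and NPAS2 level. Among the p160 coactivators, NCOA3 took 45.3% ± 0.749, NCOA2 30.8% ± 1.46 and NCOA1 23.8% ± 1.37.

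The targeted gene was examined first in every library, as normalised counts (reads divided by the size factor of the library). ARNT had 2187, 2551 and 2318 normalised counts in shControl, against 1239, 1238 and 1199 in shARNT, and 2072, 1928 and 2043 in shBMAL1. The shARNT libraries lay far below all others and 52.1% of the shControl mean remained. The log2 fold change of ARNT in shARNT was -0.94 (SE 0.0738, adjusted p = 8.81e-35, DESeq2 Wald test with Benjamini-Hochberg adjustment over all genes tested).

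BMAL1 had 752, 797 and 735 normalised counts in shControl, against 676, 656 and 568 in shARNT, and 346, 292 and 340 in shBMAL1. The shBMAL1 libraries lay below all others and 42.8% of the shControl mean remained. The log2 fold change of BMAL1 in shBMAL1 was -1.23 (SE 0.114, adjusted p = 2.51e-25, DESeq2). Each knockdown left a measurable level of its target, 20.03 TPM of ARNT in shARNT and 4.84 TPM of BMAL1 in shBMAL1.

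**Figure D2:**
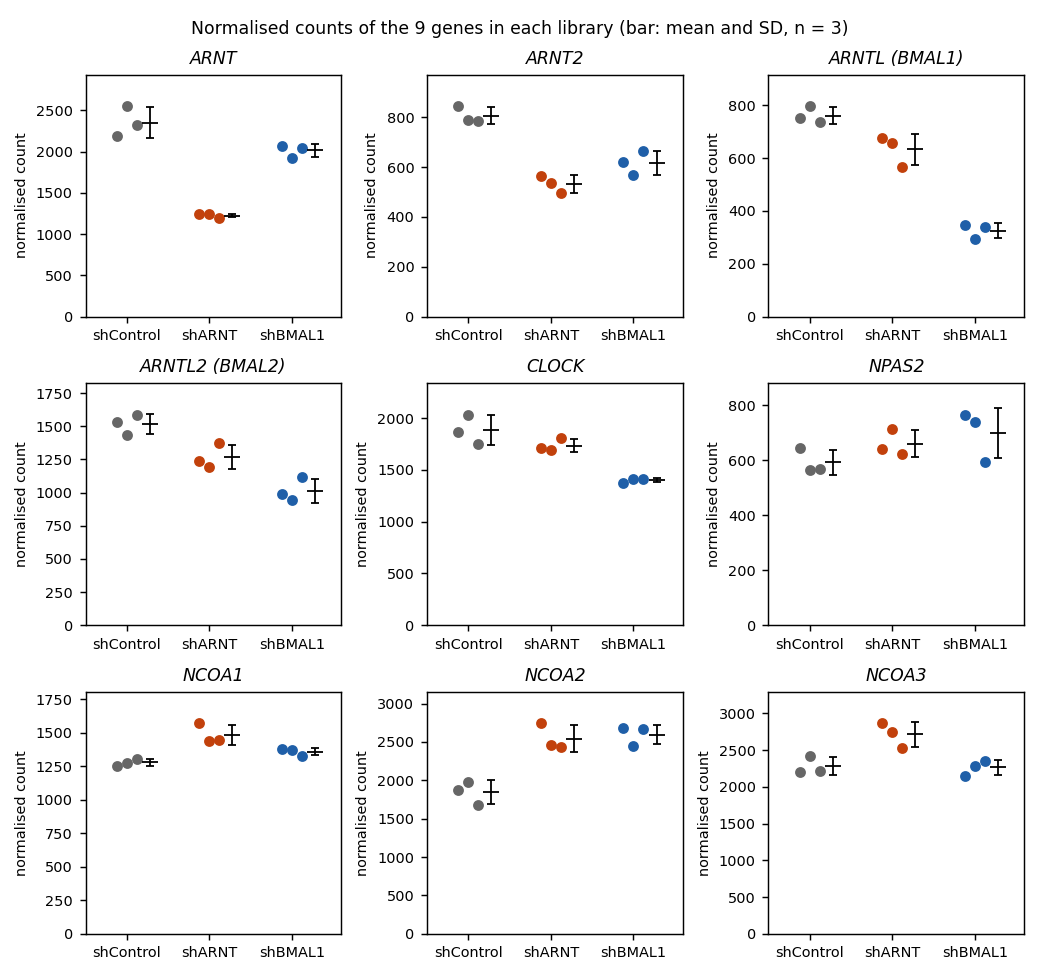
Normalised counts of the 9 genes, with 1 point for each library in replicate order and the mean with its SD (n = 3) at the right of each group; each vertical axis starts at 0. ARNT was lowest in shARNT, at 1199 to 1239, and BMAL1 was lowest in shBMAL1, at 292 to 346.

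Calls were made at an adjusted p under 0.1, the false discovery rate that the study's methods use. In shARNT against shControl, 7 of the 9 members were called: ARNT, ARNT2, BMAL1 and BMAL2 were lower, and NCOA1, NCOA2 and NCOA3 were higher. In that comparison 35.4% of the 15164 genes tested were called, 19.0% lower and 16.5% higher. In shBMAL1 against shControl, ARNT, ARNT2, BMAL1, BMAL2 and CLOCK were lower and NCOA2 was higher, so 6 of 9 were called where 36.8% of 19036 genes were (19.4% lower, 17.4% higher). The median log2 fold change of the members was -0.11 in shARNT and -0.23 in shBMAL1, beside 0.00285 and 0.0153 over all genes tested. Each of these counts and medians includes the hairpin's own target, whose lower level was set by the design. Both comparisons use the same 3 shControl libraries, so a high or low control library moves both.

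Few of these changes were large. With a minimum change of 1.5-fold added, ARNT and ARNT2 remained in shARNT, where 7.91% of genes tested passed, and BMAL1 remained in shBMAL1, where 13.7% passed. BMAL2, at -0.58 in shBMAL1, fell just short of that minimum.

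**Figure D3:**
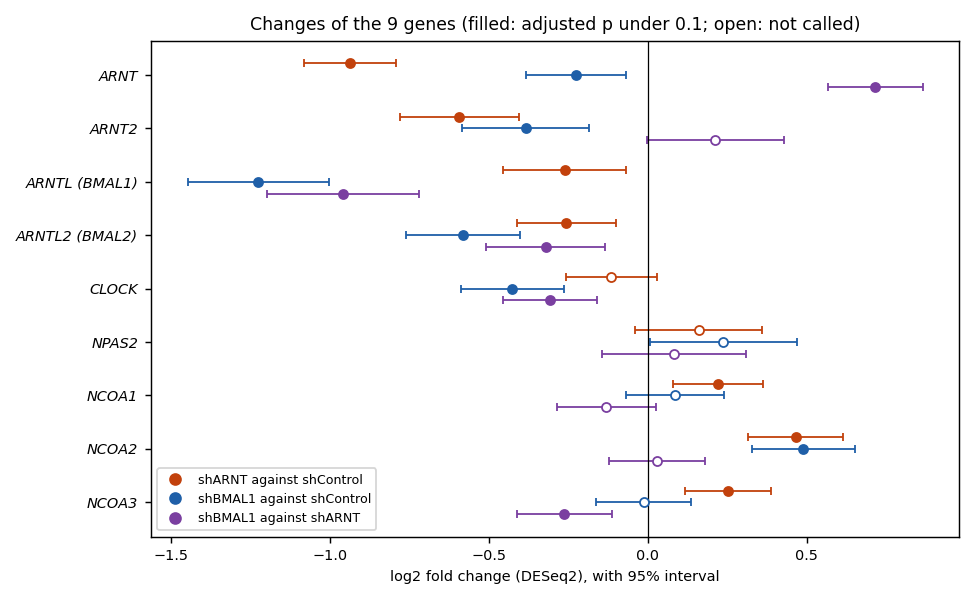
Log2 fold change of the 9 genes with its 95% interval (1.96 SE) in the 3 comparisons; filled points passed an adjusted p of 0.1 and open points did not. The 4 ARNT and BMAL genes lie to the left of 0 under both hairpins, from -0.94 to -0.26 in shARNT and from -1.23 to -0.23 in shBMAL1.

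ARNT2, the ARNT paralogue best known from the nervous system, was lower under both hairpins. It had 844, 787 and 783 normalised counts in shControl, against 565, 536 and 496 in shARNT, and 620, 568 and 664 in shBMAL1. All 6 knockdown libraries lay below all 3 control libraries, and the shARNT libraries, at most 565, lay just below the lowest of shBMAL1, at 568. Its decrease was -0.59 on the log2 scale in shARNT (SE 0.0961, adjusted p = 1.31e-08, DESeq2) and -0.38 in shBMAL1 (SE 0.102, adjusted p = 0.000951). ARNT2 was lower, not higher, in the cells in which ARNT was targeted.

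BMAL2, the second BMAL gene, had 1531, 1432 and 1587 normalised counts in shControl, against 1239, 1191 and 1371 in shARNT, and 987, 942 and 1115 in shBMAL1. The 3 groups did not overlap, with shControl highest and shBMAL1 lowest. On the log2 scale BMAL2 changed by -0.26 in shARNT (SE 0.0791, adjusted p = 0.00616, DESeq2) and -0.58 in shBMAL1 (SE 0.0912, adjusted p = 2.83e-09). Compared directly, BMAL2 was lower in shBMAL1 than in shARNT by -0.32 on the log2 scale (SE 0.0953, adjusted p = 0.00396), so the larger fall was in the cells in which its paralogue was targeted.

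Each targeted gene was also slightly lower under the other hairpin, and both calls were lost, with the sign kept, when certain libraries were left out. For ARNT in shBMAL1 the log2 fold change was -0.23 (SE 0.0802, adjusted p = 0.0187, DESeq2), with all 3 shBMAL1 libraries below the 3 of shControl. Without shControl replicate 2 it was -0.16 (adjusted p = 0.162), and without shBMAL1 replicate 2 it was -0.19 (adjusted p = 0.109). For BMAL1 in shARNT the log2 fold change was -0.26 (SE 0.0981, adjusted p = 0.0294), and the groups again did not overlap. Here it was -0.23 without shControl replicate 2 (adjusted p = 0.15) and -0.19 without shARNT replicate 3 (adjusted p = 0.22).

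Set directly against each other, the 2 knockdowns differed in each other's targets. ARNT was higher in shBMAL1 than in shARNT by 0.72 on the log2 scale (SE 0.0762, adjusted p = 2.94e-19, DESeq2), and BMAL1 was lower by -0.96 (SE 0.122, adjusted p = 1.47e-13). In this comparison 5 of the 9 members were called, 1 higher (ARNT) and 4 lower (BMAL1, BMAL2, CLOCK and NCOA3), where 35.3% of 18181 genes tested were called, 17.3% higher and 18.0% lower. Both hairpin targets are among these 5, and their calls were set by the design. ARNT2 did not pass, with a difference of 0.21 and a 95% interval from -0.00357 to 0.43 (adjusted p = 0.141).

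CLOCK, the main BMAL partner, was lower in shBMAL1. It had 1866, 2034 and 1747 normalised counts in shControl, against 1713, 1688 and 1804 in shARNT, and 1377, 1417 and 1413 in shBMAL1. The shBMAL1 libraries lay below the other 6, while shControl and shARNT overlapped. The log2 fold change in shBMAL1 was -0.43 (SE 0.0824, adjusted p = 2.31e-06, DESeq2), and in shARNT it was -0.11 (95% interval from -0.26 to 0.0296, adjusted p = 0.254). The direct difference between the knockdowns was -0.31 (SE 0.076, adjusted p = 0.000358). 

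NPAS2, which can replace CLOCK as the BMAL partner, did not pass the test under either hairpin. It had 643, 565 and 567 normalised counts in shControl, against 642, 715 and 621 in shARNT, and 765, 738 and 593 in shBMAL1. The groups overlapped in every comparison. NPAS2 gave a log2 fold change of 0.16 in shARNT (95% interval from -0.0414 to 0.36, adjusted p = 0.254, DESeq2) and 0.24 in shBMAL1 (95% interval from 0.00668 to 0.47, adjusted p = 0.116). The shBMAL1 value passed the threshold under 6 of 15 alternatives, among them edgeR (adjusted p = 0.0713) and the fit without shBMAL1 replicate 3 (0.34, adjusted p = 0.0201), so its call changed with the method and with the libraries included.

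NCOA2 (TIF2 or GRIP1) was the p160 member with the largest change, and it rose under both hairpins. It had 1879, 1980 and 1681 normalised counts in shControl, against 2745, 2454 and 2432 in shARNT, and 2677, 2448 and 2664 in shBMAL1. All 6 knockdown libraries lay above all 3 control libraries. The log2 fold change was 0.47 in shARNT (SE 0.0762, adjusted p = 1.85e-08, DESeq2) and 0.49 in shBMAL1 (SE 0.0823, adjusted p = 3.58e-08). The direct difference between the knockdowns was 0.0285 with a 95% interval from -0.12 to 0.18.

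NCOA3 (SRC-3 or AIB1), the most abundant of the family per length, was higher in shARNT but not in shBMAL1. It had 2210, 2427 and 2210 normalised counts in shControl, against 2868, 2750 and 2528 in shARNT, and 2151, 2285 and 2358 in shBMAL1. The shARNT libraries lay above the other 6. NCOA3 changed by 0.25 on the log2 scale in shARNT (SE 0.069, adjusted p = 0.00151, DESeq2) and -0.0133 in shBMAL1 (95% interval from -0.16 to 0.14). The difference itself passed, with NCOA3 lower in shBMAL1 than in shARNT by -0.26 (SE 0.0767, adjusted p = 0.0033).

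NCOA1 (SRC-1) had 1256, 1272 and 1308 normalised counts in shControl, against 1572, 1440 and 1448 in shARNT, and 1378, 1371 and 1329 in shBMAL1. Both knockdown groups lay above the control libraries, with shARNT highest. The log2 fold change was 0.22 in shARNT (SE 0.0728, adjusted p = 0.0113, DESeq2) and 0.0863 in shBMAL1 (95% interval from -0.068 to 0.24, adjusted p = 0.459). Without shARNT replicate 1 the shARNT value was 0.18 and its adjusted p was 0.108.

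Summed over the 4 ARNT and BMAL genes, the level per length was lower under both hairpins. The sum was 87.6 ± 3.23 TPM in shControl, compared with 56.0 ± 1.67 in shARNT and 60.2 ± 3.45 in shBMAL1 (each with SD over n = 3). The libraries of each knockdown lay below those of shControl, and the 2 knockdown groups overlapped. With 3 libraries against 3, the smallest p that the two-sided exact permutation test can give is 0.1, so no sum or share could pass 0.05. It was 0.1 for both knockdowns against shControl and 0.2 between them (0.125 and 0.214 adjusted over 15 tests of sums). The median gene of 13721 shifted by -0.0643 in shARNT and -0.11 in shBMAL1 on this TPM scale, against which these changes of -0.65 and -0.54 (log2) are read.

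The 2 pairs took unequal parts in that fall. The ARNT pair went from 51.6 ± 3.03 TPM in shControl to 27.3 ± 1.41 in shARNT and 40.4 ± 1.90 in shBMAL1. The BMAL pair went from 35.9 ± 1.34 to 28.7 ± 0.473 and 19.8 ± 1.68. In each case the pair that held the targeted gene was lower by more, and all groups were separate (exact permutation p = 0.1, n = 3, adjusted 0.125). The target is part of that pair, so the larger fall of the pair was largely set in advance by the knockdown. CLOCK and NPAS2 together had 23.2 ± 2.08, 21.4 ± 0.331 and 18.3 ± 0.642 TPM. The p160 coactivators together had 65.9 ± 4.37, 78.2 ± 5.87 and 70.0 ± 1.54 TPM, and the shBMAL1 libraries overlapped those of shControl. The log2 change of the p160 sum in shBMAL1 was 0.0894, and 0.22 when the coding length was used.

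**Figure D4:**
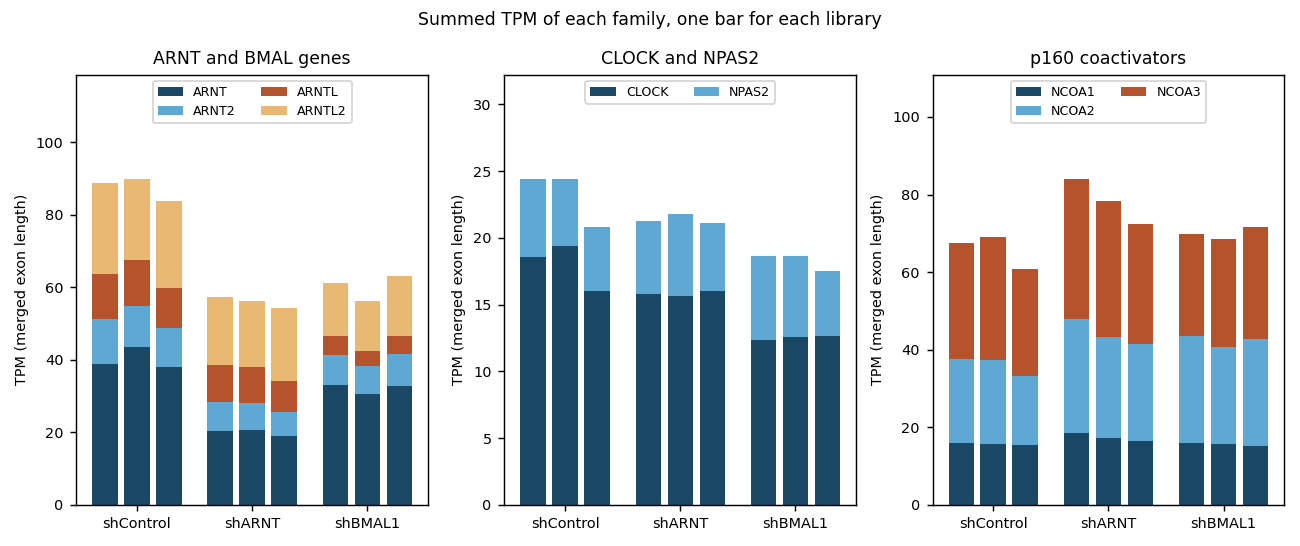
Summed TPM of the ARNT and BMAL genes, of CLOCK and NPAS2 and of the p160 coactivators, with 1 stacked bar for each library in replicate order and 1 colour for each gene. The ARNT and BMAL bars are shorter in all 6 knockdown libraries, at 54.2 to 63.0 TPM against 83.9 to 89.9, and the p160 bars are tallest in shARNT.

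The shares of ARNT and BMAL1 among the 4 ARNT and BMAL genes were separate between groups, while some other shares overlapped. Each hairpin's target is among these 4 genes, and its fall lowers its own share and raises the others. These separations, and the ratio given below, therefore largely restate the knockdowns. The level of BMAL1 itself was lower in shARNT, at 9.63 against 12.1 TPM in shControl, although its share was higher. ARNT made up 45.8% ± 2.39 of the 4 genes in shControl, but 35.8% ± 0.653 in shARNT and 53.5% ± 1.44 in shBMAL1. BMAL1 made up 13.8% ± 0.387, 17.2% ± 1.45 and 8.04% ± 0.37. Each of these comparisons gave the smallest p that the test allows (exact permutation p = 0.1, n = 3, adjusted 0.167 over 30 tests of shares). The ratio of BMAL1 to ARNT was 0.302 ± 0.0157 in shControl, 0.48 ± 0.0352 in shARNT and 0.15 ± 0.00803 in shBMAL1.

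Within the pairs, ARNT made up 77.7% of the ARNT pair in shControl, against 73.4% ± 0.949 in shARNT and 79.7% ± 0.861 in shBMAL1. The shARNT libraries lay below those of shControl (exact permutation p = 0.1, n = 3, adjusted 0.167), and those of shBMAL1 overlapped them (p = 0.2, adjusted 0.25). A lower share of the target in its pair, under its own hairpin, largely restates the knockdown. BMAL1 made up 33.6% ± 3.55 of the BMAL pair in shARNT, close to its 33.7% in shControl, and 24.5% ± 1.41 in shBMAL1. Only the shBMAL1 libraries were separate from shControl in this share (exact permutation p = 0.1, n = 3, against p = 1 in shARNT). CLOCK made up 77.5% of its pair in shControl, against 74.0% ± 2.01 in shARNT and 68.6% ± 3.12 in shBMAL1. The CLOCK shares of shARNT overlapped those of shControl (exact permutation p = 0.2, n = 3, adjusted 0.25), and those of shBMAL1 did not (p = 0.1, adjusted 0.167). NCOA2 made up 30.8% of the p160 trio in shControl, against 34.2% ± 0.654 in shARNT and 38.2% ± 1.49 in shBMAL1, where it nearly equalled NCOA3 at 39.6% ± 1.56. The NCOA2 shares of the 3 groups did not overlap (exact permutation p = 0.1, n = 3, adjusted 0.167). The NCOA1 shares overlapped shControl under both hairpins, and those of NCOA3 in shARNT.

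Relative to EPAS1, which encodes HIF-2α, ARNT was the smaller transcript throughout. EPAS1 had a mean of 168 TPM in shControl, against 136 in shARNT and 151 in shBMAL1. The ratio of ARNT to EPAS1 was 0.24 ± 0.0286 in shControl, against 0.147 ± 0.00675 in shARNT and 0.214 ± 0.00764 in shBMAL1, and the shARNT libraries did not overlap the others. The ratio of BMAL1 to EPAS1 was 0.0722 ± 0.00521, 0.0706 ± 0.00216 and 0.0321 ± 0.00217. These are ratios of transcripts and not of proteins.

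Among other bHLH-PAS genes, HIF1A and AHR rose under both hairpins. Of 11 listed, 6 were tested in each comparison: 4 were higher and 1 lower in shARNT, and 3 were higher and none lower in shBMAL1, beside 35.4% and 36.8% of all genes called in either direction. HIF3A, SIM2, NPAS4 and PASD1 had no reads in any library. HIF1A, which encodes HIF-1α, went from 2600 ± 105 normalised counts in shControl to 3460 ± 13.8 in shARNT (log2 fold change 0.42, adjusted p = 2.00e-11, DESeq2) and 3982 ± 58.5 in shBMAL1 (0.61, adjusted p = 2.36e-18; SD, n = 3). AHR, the dioxin receptor, went from 2788 ± 133 to 3608 ± 221 (0.38, adjusted p = 1.26e-07) and 5651 ± 303 (1.02, adjusted p = 2.39e-44). EPAS1 fell by 0.23 on the log2 scale in shARNT (adjusted p = 0.000563) and did not pass in shBMAL1 (-0.0621, adjusted p = 0.546). SIM1, a developmental ARNT partner, was higher by 0.33 (adjusted p = 0.0984) and 0.63 (adjusted p = 0.000493), and the shARNT call was lost whichever library was left out (adjusted p from 0.125 to 0.395). The other gene called in shARNT was NPAS1 (1.05, adjusted p = 0.0262), which is named because it completes the count. NPAS1 had 18 to 58 reads per library, and its call was lost without shControl replicate 2 or 3 or shARNT replicate 3 (adjusted p from 0.128 to 0.166). The median log2 fold change of the tested genes of this list was 0.35 in shARNT and 0.62 in shBMAL1, beside 0.00285 and 0.0153 over all genes tested.

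Among 8 enzymes and coactivators that work with p160 proteins, 1 was lower and 2 higher in shARNT, and 2 were lower and 1 higher in shBMAL1. These 3 of 8 are near the 35.4% and 36.8% of all genes called, so the count says nothing particular to the list. The list medians were 0.0533 and -0.00848, beside 0.00285 and 0.0153 over all genes tested. PRMT1, the main arginine methyltransferase, stood apart: it had 8596 ± 293 normalised counts in shControl, against 8445 ± 454 in shARNT and 3170 ± 169 in shBMAL1 (± SD over n = 3). The change of PRMT1 was -1.44 in shBMAL1 (adjusted p = 4.06e-99, DESeq2), -0.0223 in shARNT (adjusted p = 0.819) and -1.41 between the knockdowns (adjusted p = 9.19e-88). CARM1, another arginine methyltransferase, was lower under both hairpins, by -0.33 (adjusted p = 2.80e-07) and -0.43 (adjusted p = 1.62e-09). The coactivator CCAR1 was higher in shARNT (0.42, adjusted p = 6.15e-14), as was the acetyltransferase CREBBP (0.22, adjusted p = 0.00812, but 0.117 without shARNT replicate 1), and KAT2B was higher in shBMAL1 (0.29, adjusted p = 0.00693). EP300, the acetyltransferase paralogous to CREBBP, did not pass in either (0.00547 and -0.0653).

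**Figure D5:**
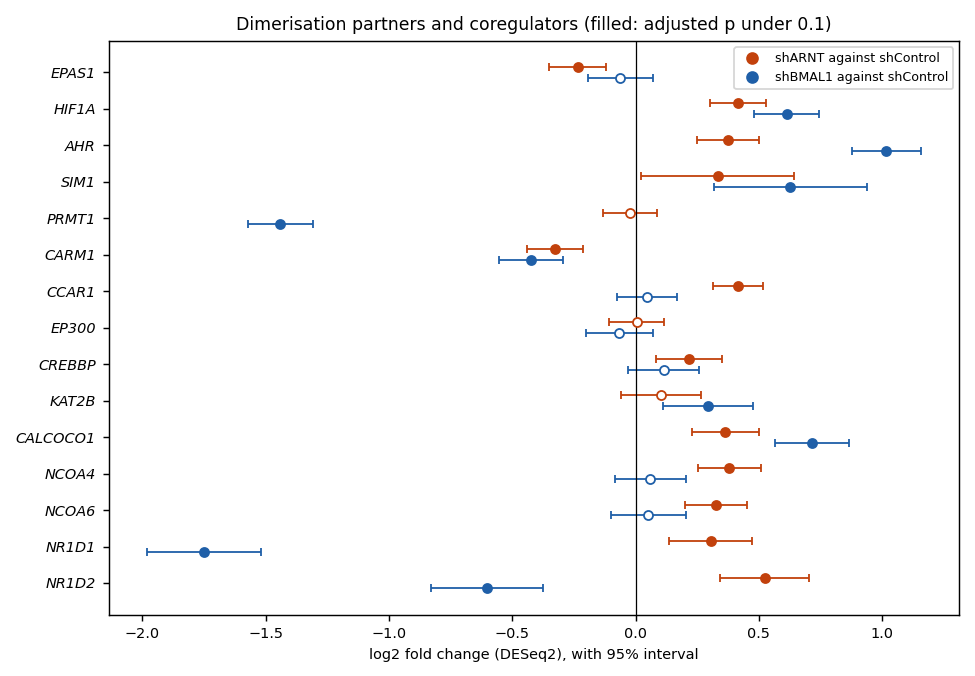
Log2 fold change, with its 95% interval (1.96 SE), of listed dimerisation partners, coregulators and REV-ERB genes in both knockdowns against shControl; filled points passed an adjusted p of 0.1. PRMT1 and NR1D1 lie at -1.44 and -1.75 in shBMAL1, and AHR at 1.02.

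Of the 3 coiled-coil coactivators of ARNT, CALCOCO1 was higher in shARNT (0.36, adjusted p = 2.44e-06, DESeq2) and in shBMAL1 (0.71, adjusted p = 6.11e-19), and TACC3 and TRIP11 passed in neither. Of 4 genes that share the NCOA name without belonging to the p160 family, 2 were higher in shARNT and none passed in shBMAL1, where 35.4% and 36.8% of all genes tested were called. With 4 genes these counts are a description. They were NCOA4, the ferritin autophagy receptor (0.38, adjusted p = 7.13e-08), and NCOA6 (0.33, adjusted p = 3.90e-06). Set directly against shARNT, both were lower in shBMAL1 (-0.32, adjusted p = 6.27e-05, and -0.27, adjusted p = 0.000752).

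The REV-ERB genes, whose proteins are known as repressors of BMAL1, moved in opposite directions under the 2 hairpins. Whether these proteins act on the letters printed above, or on BMAL1 in these cells, was not tested. NR1D1 (REV-ERBα) had 1114 ± 94.2 normalised counts in shControl, against 1373 ± 101 in shARNT and 332 ± 47.1 in shBMAL1 (± SD over n = 3). NR1D1 changed by a log2 fold change of 0.30 in shARNT (adjusted p = 0.0025, DESeq2) and -1.75 in shBMAL1 (adjusted p = 9.97e-48), and the direct difference was -2.05 (adjusted p = 3.48e-72). NR1D2 (REV-ERBβ) followed with 0.52 (adjusted p = 1.70e-07) and -0.60 (adjusted p = 2.36e-06).

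The genes whose profile over the 9 libraries was most like that of ARNT were ABLIM3, CLTCL1 and KRT80. Their root-mean-square differences from ARNT, between log2 profiles centred on their own means, were 0.053, 0.0711 and 0.0863 among 11807 genes with at least 100 normalised counts. ABLIM3, an actin-binding LIM protein, had means of 2712 in shControl, against 1519 in shARNT and 2372 in shBMAL1. Those most like BMAL1 were CDH13, FLNC and FAM129A, at 0.073, 0.0738 and 0.0899. CDH13, a cadherin without a cytoplasmic domain, had means of 4601, 3824 and 2054. These genes were picked for their likeness, so their changes are a description.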

How the data were processed

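Stranded mRNA libraries of 786-O cells were sequenced on a DNBSEQ platform, while the study's methods name a BGISEQ instrument for RNA from cell lines. The deposited values are estimated counts of total reads per gene, not normalised, which the authors made with SeqMan NGen and ArrayStar on GRCh37 per the study's methods; the labels' processing fields name STAR, DESeq2 and hg38 instead, so the pipeline is uncertain. A stand-in of 0.009 for no reads was set to 0, counts were rounded, and 53 rows were added to rows of the same name. Groups came from the sample labels.

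Each pair of groups was fitted over all genes with DESeq2 1.42.0 (R 4.3.3; median-of-ratios size factors, Wald test, two-sided, adjusted p under 0.1), and edgeR 4.0.16 was an alternative. The fit was tested on simulated data. TPM used merged exon lengths of GENCODE 44, which matched all 9 members and 23671 names (98.2% of reads). Shares and sums were compared by exact permutation tests (scipy 1.17.1). The members and gene lists were chosen with earlier results of these data known. Of each list, up to 4 genes with the smallest adjusted p under either hairpin were to be named, and EPAS1, EP300 and CREBBP in any case, together with the 3 genes most like ARNT and BMAL1. EP300 and CREBBP were so named beside the 4 of their list. Values are given where the gene was called, and for EPAS1, EP300 and PRMT1 also where it was not. Start regions came from RefSeq. Results of some listed genes are not reported here.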

Additional observations from a re-analysis of the deposited data

How the results depend on the processing

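Of 405 alternative fits of the members' changes, 375 kept direction and call, 18 lost the call, 9 gained it and 3 changed sign. Adding a minimum of 1.5-fold left 1200 genes called in shARNT, 2606 in shBMAL1 and 2064 between the knockdowns. It left 2 members lower and 0 higher in shARNT, 1 lower and 0 higher in shBMAL1, and 1 lower and 1 higher between the knockdowns. Members called higher in shBMAL1 numbered 2, with NPAS2 added, in edgeR, with a filter of 10 counts in 3 libraries, in one fit of all 9 libraries and with GC correction, and between 1 and 2 when 1 library was left out. Between the knockdowns 2 were higher, with ARNT2 added, in edgeR and in the fit of all 9 libraries. With GC correction CLOCK was called in shARNT (-0.16, adjusted p = 0.0798, DESeq2). The causes of these changes were not tested.

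Sign changes concerned values near 0. With 1 library left out, NCOA3 in shBMAL1 ranged from -0.0435 to 0.0318 (above 0 without shControl replicate 2 or shBMAL1 replicate 1), and NCOA2 between the knockdowns from -0.00606 (without shARNT replicate 3) to 0.0841. PRMT1 in shARNT was 0.0325 with GC correction, 0.031 with the replicate block and GC correction, and from -0.0565 to 0.0185 with 1 library left out. EP300 in shARNT was -0.00537 with TMM size factors and from -0.0243 to 0.0458 with 1 library left out.

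Shares in shControl moved with the length. With the longest transcript, ARNT made up 80.5% of its pair, BMAL1 47.3% of its pair and 19.0% of the 4 genes, CLOCK 70.8%, NCOA1 25.5% and NCOA3 42.2%. With the coding length, ARNT made up 72.6% of its pair and 38.7% of the 4 genes, BMAL1 15.7% of the 4 genes, CLOCK 75.6%, NCOA2 33.6% and NCOA3 42.7%. Without length scaling, ARNT made up 74.4% of its pair and 43.2% of the 4 genes, NCOA2 34.1% and NCOA3 42.2%. Sums in shARNT changed by -0.25 for the BMAL pair and -0.53 for the 4 genes (log2) with the coding length, and by -0.26 for the BMAL pair with size factors. The p160 sum in shBMAL1 changed by 0.22 with the coding length.

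Replicates that share a number did not deviate together more than others did. Their correlations ran from -0.214 to 0.125, against -0.297 to 0.301 for different numbers. With so few libraries this cannot show whether replicates were handled as pairs. With the replicate block 4150, 5742 and 5388 genes were called in shARNT, shBMAL1 and between the knockdowns, and no member's call changed. Depth limited listed genes with few or no reads, which were not tested, and none of the 9 members.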
